A study of Mus musculus with 6 samples.

Results

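The cells described here are CD4 T cells of the fibrotic mouse lung that carry Icos and lack Lef1, the transcription factor of naive and recirculating T cells, and they are called effector CD4 T cells below. They were picked from single-cell RNA counts by the unique molecular identifiers (UMIs, 1 per captured RNA molecule) of a few genes. A barcode needed at least 1000 UMIs, at least 500 genes and at most 10% mitochondrial UMIs. It also needed at least 2 UMIs of Cd3e, Cd3d and Cd3g together, at least 1 of Cd4 and at least 1 of Icos, and 0 of Cd8a, Cd8b1, Foxp3, Lef1 and Cd79a. Of 25704 cells within the limits, 175 met the rule, among 5209 T cells and 1544 conventional CD4 T cells (Cd4 without Cd8 and Foxp3).

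The cells come from 6 male mice, 12 weeks old, in which human exons replace exons 2 and 3 of Ctla4 (hCTLA4 on C57BL/6), so that the human antibody ipilimumab can bind. All 6 received bleomycin, which scars the lung, given oropharyngeally as 2 doses of 1.25 U per kg, 2 weeks apart. From day 21 after the second dose, 3 mice were given ipilimumab and 3 an IgG1 isotype control, both at 5 mg per kg into the peritoneum for 4.5 weeks. The right lung of each mouse was digested with collagenase and DNase and made into a 10x Genomics 3' library of its own, so both antibodies are compared in bleomycin-injured lung and p-values measure the spread between mice.

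ICOS is a costimulatory receptor of the CD28 family that T cells put on their surface after activation, and it sustains helper cells once they have met antigen. CTLA4 belongs to the same family but restrains T cells by taking CD80 and CD86 away from CD28, and ipilimumab blocks it. Activated CD4 cells leave the recirculating pool, shut off Lef1 and lymph node homing genes such as Ccr7, and enter tissue, where Cxcr6 helps to keep them in the lung. They act on other cells through cytokines and through ligands of the TNF superfamily, among them Cd40lg, which licenses B cells and dendritic cells, and Tnfsf8, the CD30 ligand.

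The libraries held 37666042 to 48612412 UMIs, and 3344 to 5170 cells each passed the limits. The 175 effector cells had 104942, 209544 and 140272 UMIs in the IgG1 mice and 195216, 395291 and 445883 in the ipilimumab mice, and their median depth was 6323 to 7467 UMIs per cell in the 6 mice. The library of ipilimumab replicate 1 stood apart in its small barcodes, with 22056 of at least 100 UMIs where the other libraries had 4834 to 6230. Over the 15 pairs of libraries, 70 cell barcodes were shared, and none of them belonged to an effector cell. Of the effector cells, 7 held at least 20 UMIs of 14 macrophage marker genes, as did 11 naive-like, 6 Foxp3 and 5 CD8 cells of the gates described below. Such cells are called macrophage-rich by this threshold alone, and the comparisons were also run without them.

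The rule used the counts of its own genes, so their values only describe the choice. Icos had 1 UMI in 27 cells, 2 in 31 and at least 3 in 117, with a median of 4, and Cd4 had just 1 UMI in 80 cells. Outside the gate, 805 cells failed by Lef1 alone, of which 81 held a single Lef1 UMI, and 51 failed by Icos alone. Another 210 lacked only a Cd4 UMI, and 25 were kept out by Foxp3 alone. Icos-positive CD4 cells with Lef1 thus outnumbered those in the gate.

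Cxcr6, Cd40lg, Tnfsf8 and Rora were not part of the rule but were named as markers of these cells from earlier results of the same data, so their levels in the gates are given without a test, and a list that holds one of them is not independent evidence of its direction. The markers Cxcr6 (chr9:123806475-123811760, plus strand), Cd40lg (chrX:57212143-57224042, plus), Tnfsf8 (chr4:63831308-63861347, minus) and Rora (chr9:68653786-69388246, plus; GRCm38) lie apart from Icos and Ctla4, which neighbour each other on chromosome 1. The levels are UMIs of the gene per 1000000 UMIs of a mouse's summed cells (CPM). They were set beside those of naive-like cells (Lef1 without Icos, 513 cells), Foxp3 CD4 cells (107 cells) and Ccl5-positive, Lef1-negative CD8 cells (134 cells). Cxcr6, a chemokine receptor of tissue T cells, was at 66.7, 124 and 78.4 CPM in the effector cells of the IgG1 mice and 82.0, 139 and 197 in those of the ipilimumab mice. Its mean over the 6 mice was 115 ± 49.4 CPM (SD, n = 6) in effector cells, 4.35 ± 5.6 in naive-like, 36.9 ± 39.4 in Foxp3 and 60.9 ± 58.4 in CD8 cells. Each mouse had more Cxcr6 in its effector cells than in its naive-like cells, while the ranges of effector and CD8 cells overlapped.

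Cd40lg was at 85.8, 186 and 292 CPM in the IgG1 mice and 307, 162 and 348 in the ipilimumab mice. Its mean was 230 ± 101 CPM in effector, 52.7 ± 17.6 in naive-like and 41.8 ± 42.3 in Foxp3 cells, and the CD8 gate held 2 UMIs in all. Tnfsf8 was at 353, 119 and 257 CPM in IgG1 and 374, 400 and 747 in ipilimumab mice, with means of 375 ± 209 in effector, 46.3 ± 22.9 in naive-like, 103 ± 105 in Foxp3 and 7.10 ± 12.5 in CD8 cells. The mean of both ligands was highest in the effector gate. Rora, a nuclear receptor found in many differentiated T cells, was shared more widely, with 1098 ± 331 CPM in effector, 906 ± 408 in Foxp3, 631 ± 139 in CD8 and 122 ± 30.8 in naive-like cells.

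**Figure D1:**
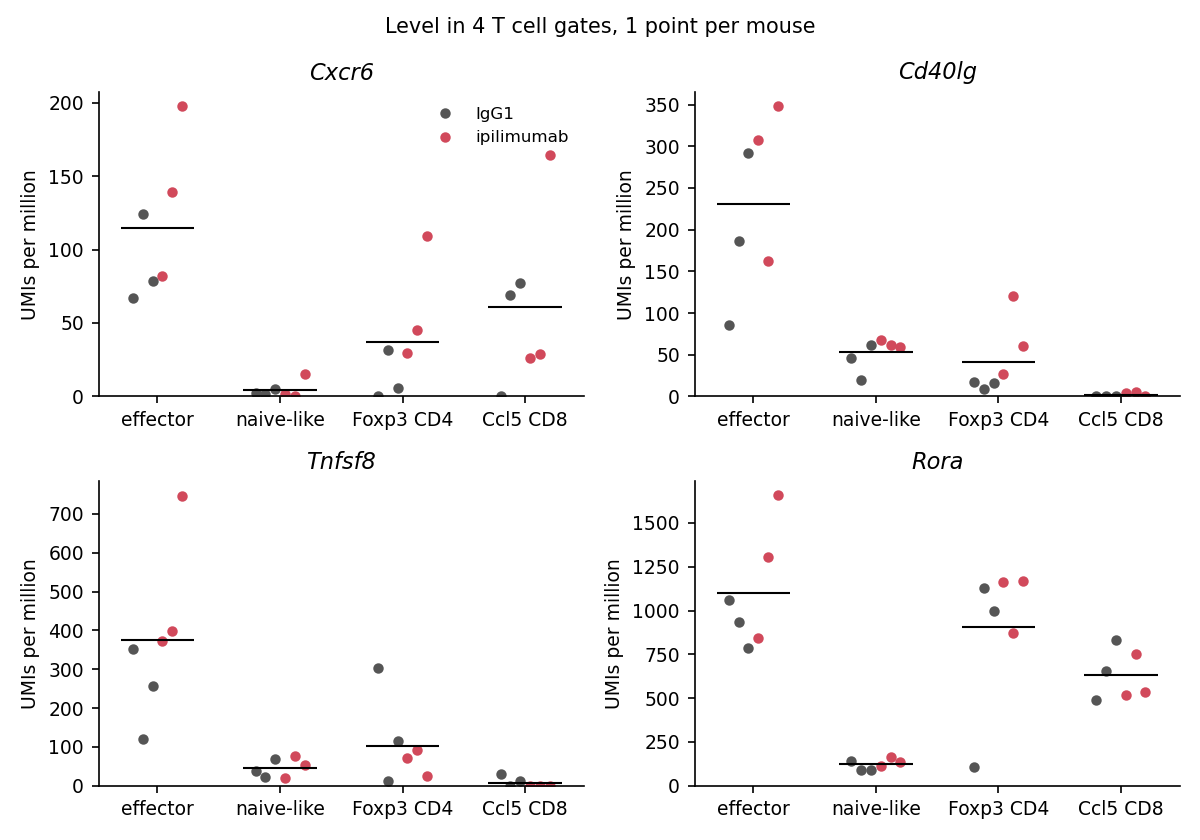
CPM (UMIs per 1000000 UMIs of the summed cells) of 4 marker genes in the 4 T cell gates, 1 point per mouse, grey for IgG1 and red for ipilimumab, with the mean of 6 mice as a line. Cxcr6, Cd40lg and Tnfsf8 lay highest in effector cells on average, at 115, 230 and 375 CPM, and Rora was also high in Foxp3 and CD8 cells.

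Within the gate the markers were detected in different numbers of cells. Cd40lg had at least 1 UMI in 95 of the 175 cells (54.3%), Cxcr6 in 67 (38.3%), Tnfsf8 in 59 (33.7%) and Rora in 166 (94.9%), while 133 cells (76.0%) had at least 1 of Cd40lg, Cxcr6 and Tnfsf8 and 14 (8.0%) had all of them. In B cells, which give the level of free RNA at a median depth of 5257 to 6689 UMIs, Cxcr6 was found in 0.598% and Rora in 2.69% of 9025 cells. With each cell thinned to 2000 UMIs, Cxcr6 was found in 20.6% and Cd40lg in 26.9% of effector cells, so a missing UMI at this depth does not show that a cell lacked the RNA.

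Helper programs were read from their defining genes. Of the type 1 genes, Tbx21, the T-bet gene, had a UMI in 73 cells (41.7%), its target Cxcr3 in 82 (46.9%) and Ifng in 56 (32.0%), and 127 cells (72.6%) had at least 1 of them. In B cells these genes were found in 2.12%, 0.476% and 0.654%. Gata3, which directs type 2 cells but is also present at lower level in other T cells, had a UMI in 77 cells (44.0%), 52 of which also had a type 1 gene. The type 2 cytokines Il4, Il5 and Il13 were found in 10 cells together (5.71%), the type 17 cytokine Il17a in 7 (4.0%) and Il17f in 4 (2.29%). Cxcr5 or Il21, genes of follicular helpers, were found in 20 cells (11.4%), but Cxcr5 was in 54.0% of B cells. The factors Tbx21 and Gata3 were thus detected in 41.7% and 44.0% of cells, and among the cytokines Ifng was detected in more cells than those of types 2 and 17. Of these genes, B cell shares are given for the type 1 genes and Cxcr5 only, so the other shares describe detection alone.

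The type 1 genes were detected in 10 of 14, 17 of 24 and 16 of 17 cells in the IgG1 mice and in 21 of 27, 31 of 42 and 32 of 51 in the ipilimumab mice. Il17a was detected in 0, 1 and 0 cells of the IgG1 mice and 0, 3 and 3 of the ipilimumab mice. Neither share was tested between treatments.

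The effector gate was first compared with naive-like CD4 cells, to ask what else changes when Lef1 is absent and Icos present. Tests here and below used edgeR's quasi-likelihood method on UMIs summed per mouse and gate, with the mouse as a block and the rule's genes left out, and calls required an adjusted p under 0.05 together with a log2 fold change beyond 1 in either direction. Of 5759 genes tested, 393 (6.82%) were higher in effector cells and 252 (4.38%) were lower. Both gates were cut on Icos and Lef1, so genes that go with these follow in part from the choice of cells, and the test shows which differences recurred from mouse to mouse. A filter on low counts preceded each test. Genes near 0 in 1 gate passed it through the other gate, so their direction was largely set beforehand. Ifng was such a gene among the higher ones, and Igfbp4 and Auts2 among the lower. The counts of list members below have this limit in part. All 20 genes named by rank in this comparison kept their call with each mouse left out in turn. Without the macrophage-rich cells of both gates 19 of them kept it, and Myo3b was not tested.

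A list of tissue residence and homing genes was called higher in most of its members, and single genes are named first by the size of their difference. By fold, the highest named genes besides the marker Cxcr6 were Myo3b (log2 fold change 4.67), Ier5l (4.42), Ctla2a, Ttc39c (4.10), S100a4, Tshz2 (4.01), Ifng, the runt factor Runx2 (3.83) and the growth factor signalling inhibitor Spry1 (3.58). S100a4, a calcium-binding protein of motile cells, was at 3068, 749 and 991 CPM in the effector cells of the IgG1 mice and 599, 1161 and 1559 in those of the ipilimumab mice. Its naive-like levels were 64.5, 5.38 and 44.2, and 56.8, 130 and 156 CPM, so the ranges did not overlap (log2 fold change 4.02 ± 0.31 (SE), adjusted p = 2.5e-08, edgeR). Of the 14 genes tested in a list of tissue residence and homing, 11 rose and 0 fell, with a median log2 fold change of 1.55 against -0.01 over all genes tested. The count includes the marker Cxcr6, and 3 of the 11 calls (Ccr2, Cxcr4 and Itga4) were lost when at least 1 mouse was left out, and Ccr2 was not tested without the macrophage-rich cells. Besides Cxcr6 and S100a4 they included S100a6 (log2 fold change 3.28), Rgs1, a brake on chemokine receptor signalling (3.02), the integrin chain Itgb1 (2.40) and Cd44, a receptor for hyaluronan (1.68). Itgae, the CD103 chain of many epithelial resident T cells, had a UMI in 5 of the 175 cells and was not tested.

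Type 1 genes rose with them. Ifng, interferon gamma, was at 248, 138 and 164 CPM in the effector cells of the IgG1 mice and 364, 116 and 42.6 in the ipilimumab mice, against 0 to 39.3 CPM in naive-like cells (log2 fold change 4.01 ± 0.43, adjusted p = 1.0e-06). All 6 effector values were above all 6 naive-like values. The filter kept Ifng through the effector gate, where it is high. Of the 12 genes of the type 1 list 9 were tested, so the count has the same limit in part. Of these 9 genes, 7 rose and 0 fell (median 2.47), among them Tbx21 (3.06), Cxcr3 (3.43), the IL-18 receptor genes Il18r1 (2.18) and Il18rap (2.49), the granule gene Nkg7 (2.47) and Stat4 (1.01), whose call was lost without IgG1 replicate 3 or ipilimumab replicate 1. Maf, a regulator of IL-4, IL-10 and IL-21 genes, also rose (2.93). Of 3 type 2 genes tested, 2 rose, Gata3 (1.37) among them. Il4ra of the same list fell (-1.56 ± 0.21, adjusted p = 1.3e-05), and each of the 3 calls was kept with any mouse left out. Of 14 measured cytokines linked to fibrosis or repair, 3 were tested, and the others did not pass the filter on low counts. The tested genes were Areg, an epidermal growth factor receptor ligand (3.58), Ifng and Tgfb1 (1.12, lost without IgG1 replicate 3), and all rose.

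Receptors and ligands of costimulation rose in part. Of 5 tested TNF ligands, 4 rose, but Cd40lg and Tnfsf8 among them had been named as markers from these data. The others were Tnfsf11, the RANK ligand (2.97), and Fasl, which triggers death through Fas (1.72). Ltb, a subunit of lymphotoxin, had a log2 fold change of -0.19 that did not pass. Tnfrsf4, the OX40 receptor (3.05), and Tnfrsf1b, a receptor for TNF (2.03), were the TNF receptors that rose, and Tnfrsf1a and Fas fell (log2 fold changes of -1.19 and -1.01), with calls that were lost when some mice were left out. Without the macrophage-rich cells Tnfrsf1a was not tested and Fas fell inside the fold limit (-0.99). All 5 tested markers of regulatory T cells were higher than in naive-like cells too, Nrp1 (2.62) and Ikzf2 (2.18) among them, although Foxp3 is at 0 by the rule. At this depth 0 Foxp3 UMIs do not show that a cell lacked the RNA. Whether regulatory T cells with undetected Foxp3 lie in the gate was not tested. In a list of the CD28 family and other receptors, 3 of 5 tested genes rose. These were the CD28 family members Ctla4 (2.62 ± 0.13) and Cd28 (1.25), and, from outside that family, Cd226 (1.34). Ctla4 stood at 1658, 983 and 1433 CPM in the IgG1 and 840, 1265 and 1967 in the ipilimumab mice, against 169 to 234 CPM in naive-like cells, so the gates did not overlap for the gene that the antibody targets.

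Genes of the interleukin-2 pathway and of recent stimulation moved less evenly. Il2rb, the chain that IL-2 and IL-15 receptors share, rose (2.82), as did Cish, a STAT5 target (2.88), whereas Stat5a (-1.18) and Bcl2 (-1.30), a survival gene, fell. Of 11 genes of the T cell receptor response, 4 rose and 0 fell (median 0.89), among them Nr4a2 (1.35), and the calls of 3 of the 4 were lost when at least 1 mouse was left out. Of 12 immediate early genes, which digestion of tissue can also induce, 2 rose (Fosb, 1.71, and Atf3, 1.91). Fosb kept its call with each mouse left out, whereas Atf3 was not tested in 2 of these 6 fits, nor without the macrophage-rich cells.

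Naive and recirculation genes fell. Of 11 tested, 9 fell and 0 rose (median -1.80), each with its call kept when any 1 mouse was left out. Satb1, a chromatin organiser of resting T cells, was at 143 to 773 CPM in effector cells and 2366 to 2938 CPM in naive-like cells (log2 fold change -3.09 ± 0.23, adjusted p = 1.3e-08). Ccr7, the lymph node homing receptor, was at 15.7 to 178 against 413 to 526 CPM (-2.79 ± 0.29, adjusted p = 8.1e-07). Neither pair of ranges overlapped. Igfbp4 had 2 UMIs in all effector cells and 1049 in the naive-like cells, a ratio of 189 per UMI sequenced (95% counting interval 52.2 to 1562). Auts2 had 0 against 338 UMIs and was at least 40.6-fold lower, taking 3 UMIs over the gate as the floor. Tcf7, which often goes with Lef1, fell by 1.19 on the log2 scale but stayed detectable in 57.7% of effector cells, against 0.942% of B cells. Il7r, the IL-7 receptor, did not pass (log2 fold change -0.28, adjusted p = 0.16).

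Markers of dendritic cells, among them genes of antigen presentation by MHC class II, were also lower, in 3 of 3 tested (median -1.29). H2-Aa was at 28.6, 4.77 and 14.3 CPM in the effector cells of the IgG1 mice and 20.5, 25.3 and 47.1 in the ipilimumab mice, against 7.74, 5.38 and 7.36, and 36.9, 129 and 218 CPM in naive-like cells (log2 fold change -1.67, adjusted p = 7.4e-03). Naive-like cells held more of it in all 3 ipilimumab mice and in IgG1 replicate 2, and less in the other IgG1 mice. H2-Ab1 was likewise higher in the effector cells of 3 of the 6 mice and Cd74 in those of 2, so none of these genes was lower in every mouse. The calls of H2-Aa and H2-Ab1 (-1.20) were not kept with each mouse left out. The naive-like gate held 0, 1 and 1 macrophage-rich cells in the IgG1 mice and 1, 4 and 4 in the ipilimumab mice. Without those of both gates, naive-like H2-Aa was at 7.74, 3.78 and 6.26, and 38.5, 125 and 5.18 CPM, so the value of ipilimumab replicate 3 fell to the IgG1 level and that of replicate 2 did not. H2-Aa and H2-Ab1 were then no longer tested, and Cd74 kept its call (log2 fold change -1.52, adjusted p = 0.034), so 1 of the 3 calls remained. It rested on ipilimumab replicates 1 and 2, with 41.0 and 10.5 CPM in effector against 103 and 319 in naive-like cells. In the IgG1 mice and ipilimumab replicate 3 Cd74 was higher in effector cells, at 28.6, 18.5, 21.4 and 36.4 against 23.2, 15.1, 21.3 and 24.2 CPM. Flt3, Xcr1 and Cd209a, which define dendritic cells, were at 0 in effector cells. That describes the effector gate alone, and the part of other cells in the naive-like values was not tested.

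**Figure D2:**
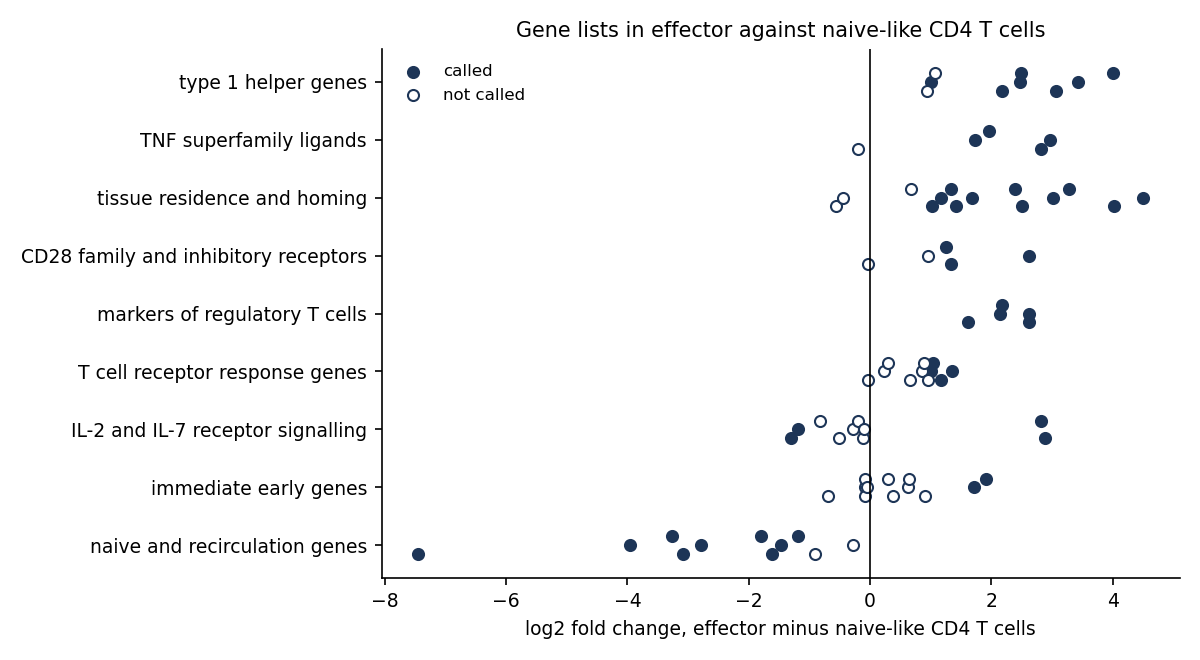
Log2 fold changes of effector against naive-like CD4 cells (x axis) for the tested members of 9 gene lists (y axis), filled where called. Members of the type 1, TNF ligand and residence lists lie mostly to the right and 9 of 11 naive genes are called on the left, of which Igfbp4, farthest out, has 2 UMIs in effector cells and no exact place.

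Ctla2a, a cysteine protease inhibitor gene, was among the 10 highest (345 ± 174 against 15.3 ± 7.91 CPM, log2 fold change 4.22 ± 0.29), although its near-identical neighbour Ctla2b may share its reads, which makes the value uncertain. To look for letters that genes moving together share, the RefSeq promoters (GRCm38.p6, 250 bases before to 50 after the start) were searched on both strands for TGANTCA, the letters of the AP-1 motif, for CTTTGAT, those of the TCF and LEF motif, and for AGGTGTGA, those of the T-box motif. Matches of different motifs can share bases at their ends, and each motif was counted by itself. TGANTCA was found in 25 of 296 promoters of genes higher in effector cells (8.45%), in 6 of 196 of lower genes (3.06%), in 4.23% of tested genes and in 7.93% of all 27025 promoters. CTTTGAT was found in 2 of 296 (0.676%), 6 of 196 (3.06%), 2.35% and 3.72%, and AGGTGTGA in 4 of 296 (1.35%), 3 of 196 (1.53%), 0.821% and 1.27%. These shares are descriptions and a match is not a site. Of the 9 promoters found among the 10 highest genes, only that of Ctla2a held TGANTCA, and it is shown as an example, with the match in capitals, 129 bases before the start (minus strand, chr13:60936626-60936875, the 250 bases upstream).
Ctla2a: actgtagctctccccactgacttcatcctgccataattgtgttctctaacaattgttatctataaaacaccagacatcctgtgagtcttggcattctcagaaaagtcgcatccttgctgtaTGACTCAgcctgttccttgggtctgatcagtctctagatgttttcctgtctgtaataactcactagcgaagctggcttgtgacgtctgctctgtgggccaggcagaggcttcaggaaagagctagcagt

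Foxp3 CD4 cells, regulatory T cells by their defining gene, share activation genes with effector cells and were compared next. Of 4093 genes, 74 (1.81%) were higher in effector and 70 (1.71%) in Foxp3 cells. This comparison rests on few cells, 8 to 29 Foxp3 cells per mouse, and the count of 144 calls moved with the mice: it was 242 without IgG1 replicate 1, 79 without IgG1 replicate 3, and 69, 94 and 87 without ipilimumab replicates 1, 2 and 3. Of the 20 genes named by rank, 14 kept their call with each mouse left out.

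Among genes higher in effector than in Foxp3 cells were type 1 genes and TNF ligands. Of 5 ligands tested 4 were higher (median 2.58), a count that includes the markers Cd40lg and Tnfsf8 and is not independent support, and 3 of the 4 calls were kept with each mouse left out, that of Tnfsf8 being lost without ipilimumab replicate 1. Fasl was at 62.0 to 124 CPM in effector cells and 0 to 7.81 in Foxp3 cells (log2 fold change 3.98 ± 0.43, adjusted p = 5.0e-04). Tbx21 was at 76.4 to 278 against 0 to 58.4 CPM (3.33 ± 0.57, adjusted p = 6.0e-03), and Tnfsf11 at 57.2 to 280 against 0 to 39.0 CPM (3.25 ± 0.43, adjusted p = 1.6e-03). In none of these did the gates overlap. Ifng was at 42.6 to 364 against 0 to 35.7 CPM (4.05 ± 0.54, adjusted p = 1.6e-03), and passed in each fit that tested it, but the filter dropped it in 1 of the 6 fits without a mouse. Fasl, Tbx21, Tnfsf11 and Ifng reached 0 in the Foxp3 gate and passed the filter on low counts through the effector gate. Their direction was therefore largely set beforehand, and the counts of type 1 genes and TNF ligands have this limit in part. Themis, a regulator of T cell receptor signalling (2.36), and Farp1 (2.67) were higher too. Of 8 type 1 genes tested 4 were higher (median 1.48 against -0.00 over all genes), but Cxcr3 was not called (0.16). Of these 4 calls 1, that of Tbx21, was kept in each fit with a mouse left out, and those of Ccl5 and Nkg7 were both lost without ipilimumab replicate 1.

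Regulatory markers were lower in effector cells in 4 of 7 tested genes and higher in 0 (median -1.13). Lrrc32 and Il2ra were not among the 5 markers tested against naive-like cells. Here they passed the filter on low counts through the Foxp3 gate, where they are high, so their direction was largely set beforehand. Lrrc32, the GARP receptor that holds latent TGF-beta on regulatory T cells, was at 0 to 20.5 CPM in effector cells and 56.9 to 143 in Foxp3 cells (log2 fold change -4.02 ± 0.55, adjusted p = 2.0e-03), with no overlap. Ikzf2, the Helios gene, was at 143 to 1124 against 481 to 2664 CPM (-2.73), and its call was lost without IgG1 replicate 3 or ipilimumab replicate 1. The highest effector value of Ikzf2, 1124 CPM, was that of IgG1 replicate 1, whose 8 Foxp3 cells had the lowest (481 CPM). Il2ra, the CD25 chain, was at 0 to 110 against 53.5 to 372 CPM (-2.25, adjusted p = 0.022), and its call was lost without IgG1 replicate 3 or any of the ipilimumab mice. Ctla4 was lower as well, at 840 to 1967 against 2157 to 3584 CPM (-1.13 ± 0.19), and fell inside the fold limit without ipilimumab replicate 1 (-0.96). Of 11 cell division genes 4 were lower and 0 higher (Mki67, Top2a, Birc5 and Cks1b), none with a call that held with each mouse left out. Top2a lost its call without the macrophage-rich cells. Against naive-like cells 6 of this list were tested, so the count has the same limit in part. Ighm, an immunoglobulin heavy chain gene of B cells, was at 35.2 ± 13.0 against 209 ± 42.2 CPM (-2.48), and its part in the other differences was not tested. S100a4 did not pass (-0.13).

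Against Ccl5-positive CD8 cells, the killer counterpart, the effector cells had 107 of 3270 genes higher (3.27%) and 61 lower (1.87%). The CD8 gate was cut on Ccl5, which was therefore not tested. Tnfrsf4, at 154 to 334 CPM in effector cells, had 0 UMIs in all CD8 cells and was at least 73.9-fold higher. Tnfsf11 was at 57.2 to 280 against 0 to 72.0 CPM (log2 fold change 4.41 ± 0.57, adjusted p = 2.2e-04). Izumo1r, the folate receptor 4 of activated and regulatory CD4 cells, had 149 against 1 UMI, a ratio of 99.2 (95% counting interval 17.5 to 3946). Tnfrsf4, Tnfsf11 and Izumo1r passed the filter on low counts through the effector gate, so their direction was largely set beforehand. Ctla4 (2.23), Maf (2.19) and Il7r (1.90) were higher also, and of 5 TNF ligands tested 3 were higher (median 4.41 against -0.01 over all genes), of which Cd40lg and Tnfsf8 are markers named from these data.

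All 7 tested cytotoxic genes were lower in effector cells (median -4.59), and each kept its call with any mouse left out. Of the same list, 3 genes were tested against naive-like and 2 against Foxp3 cells. The others passed the filter on low counts through the CD8 gate, where they are high, so their direction was largely set beforehand. Gzma, a granule protease, was at 0 to 47.7 CPM in effector and 682 to 2336 CPM in CD8 cells (log2 fold change -6.28 ± 0.39, adjusted p = 4.2e-07). Gzmb (-5.62), the pore-forming Prf1 (-4.59), Nkg7 (-2.96) and the chemokine Ccl4 (-5.75) followed. Klrc1 had 2 against 188 UMIs and Klrc2 0 against 128, but these near-identical receptor genes can exchange reads. Ifng was at 179 ± 112 against 193 ± 94.7 CPM and did not pass (-0.19, adjusted p = 0.84), and Tbx21 was lower in effector cells (-1.34, adjusted p = 5.8e-04). Of 10 type 1 genes tested, 5 were lower and 0 higher (median -1.24), Nkg7, Ccl4 and Ly6c2 among them. Of that list, 9 genes were tested against naive-like and 8 against Foxp3 cells, so this count has the same limit in part.

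The number of effector cells was compared between antibodies, since blocking CTLA4 releases T cells. They numbered 14, 24 and 17 in the IgG1 mice, or 0.309%, 0.556% and 0.508% of cells, and 27, 42 and 51 in the ipilimumab mice, or 0.522%, 1.01% and 1.22%. Ipilimumab replicates 2 and 3 were above all IgG1 mice, with Wilson intervals of 0.748% to 1.36% and 0.929% to 1.60%, but replicate 1 (0.359% to 0.759%) lay within the IgG1 range. The means were 0.458 ± 0.131% and 0.917 ± 0.358% (SD, n = 3 each), a ratio of 2.00. The edgeR test on cells per mouse gave a log2 fold change of 0.995 ± 0.353 (SE, p = 0.0095), which did not pass after adjustment over the 6 T cell gates (adjusted p = 0.0569), and the exact two-sided permutation test gave p = 0.2, where 0.1 is the smallest that 3 against 3 allows. The edgeR test estimated the spread over the gates together, and these come from the same mice. Its p-values, here and in the alternatives, thus do not rest on the spread of the effector cells alone. The edgeR test passed when the cells were set against all T cells (0.91, adjusted p = 0.0095), with TMM size factors (0.88, adjusted p = 0.0304) and with the replicate number as a block (0.97, adjusted p = 0.0315), and over all alternatives the adjusted p ran from 0.0095 to 0.367. In dissociated tissue a higher share of these cells and a loss of other cells cannot be told apart.

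Among conventional CD4 cells alone, effector cells were 5.86%, 10.9% and 7.05% in the IgG1 mice and 10.5%, 15.2% and 16.4% in the ipilimumab mice. The means were 7.94 ± 2.64% and 14.0 ± 3.12%, and again IgG1 replicate 2 exceeded ipilimumab replicate 1 (exact permutation p = 0.2). Dropping the Icos requirement separated the groups: all Lef1-negative conventional CD4 cells were 8.37%, 12.3% and 9.13% against 14.0%, 21.0% and 20.3% (exact permutation p = 0.1, the smallest possible), and the edgeR test of their share of all cells then passed (log2 fold change 1.06, adjusted p = 0.0248). Dropping the Lef1 requirement left 0.29 (adjusted p = 0.367). Leaving out ipilimumab replicate 1 gave 1.29 (adjusted p = 0.0105), and leaving out ipilimumab replicate 3 gave 0.73 (adjusted p = 0.261).

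The neighbouring gates had their own values in the same test. Lef1-negative cells without Icos were 6, 3 and 5 against 9, 16 and 12 (log2 fold change 1.25, adjusted p = 0.0631) and Foxp3 cells 8, 16 and 13 against 23, 18 and 29 (0.76, adjusted p = 0.129). Naive-like cells were 106, 70 and 94 against 79, 80 and 84 (-0.31, adjusted p = 0.462), Lef1-positive cells with Icos had 0.14 (adjusted p = 0.628) and CD8 cells -0.20 (adjusted p = 0.573). None of the 6 gates passed in this fit. The shares of all cells of the Lef1-negative cells without Icos and of the Foxp3 cells were nonetheless higher in each ipilimumab mouse than in any IgG1 mouse (exact permutation p = 0.1 each, the smallest possible), which those of the effector cells were not (p = 0.2). Differences between the gates were not tested.

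**Figure D3:**
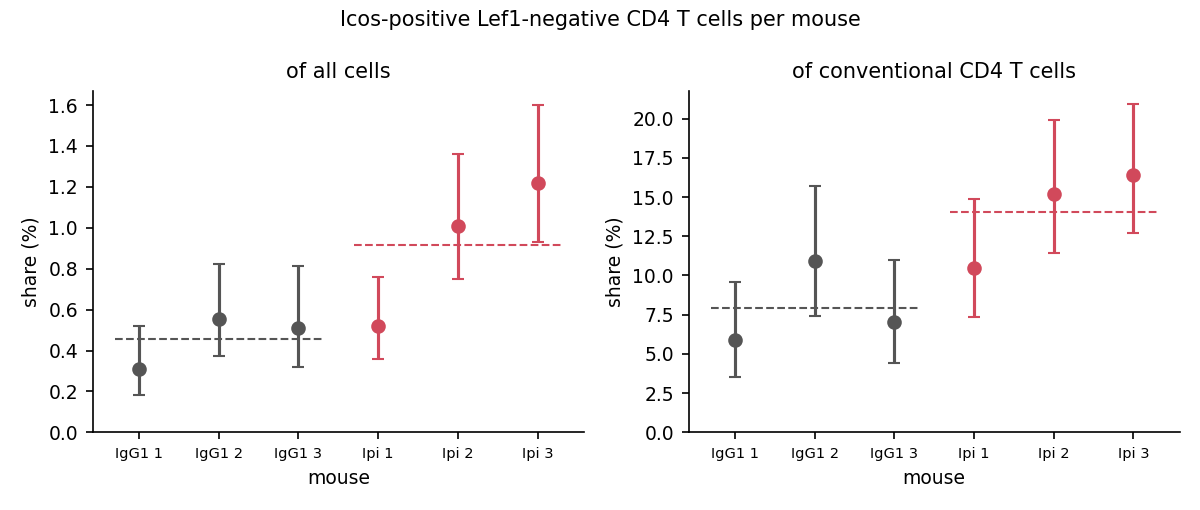
Share of effector CD4 T cells (%) among all cells (left) and among conventional CD4 T cells (right) in each mouse, grey for IgG1 and red for ipilimumab (Ipi), with 95% Wilson intervals and the group means as broken lines. Ipilimumab replicates 2 and 3 lie above all IgG1 mice and replicate 1, at 0.522% and 10.5%, does not.

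Expression within the effector cells was then compared between antibodies. Of 3555 genes, 0 (0.0%) were called by edgeR, here with a log2 fold change beyond 0.3 and an adjusted p under 0.05. DESeq2 called 3, and 219 had an unadjusted p under 0.05 by edgeR. For 396 genes (11.1%) the groups did not overlap. With 3 against 3 mice and no difference, groups separate fully with a probability of 0.1, close to this share. Neither the 219 nor the 396 genes are read as a result. By edgeR the gene lists gave no call in either direction (DESeq2 called Ifi27l2a of the interferon-stimulated list and Lyz2 of the macrophage list), and their medians were 0.29 for TNF ligands, -0.15 for type 1 genes, 0.02 for residence genes and -0.22 for naive genes, against -0.02 over all genes.

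Ctla4 itself was at 1658, 983 and 1433 CPM in IgG1 and 840, 1265 and 1967 in ipilimumab mice, with means of 1358 ± 344 and 1357 ± 569 CPM (log2 fold change 0.03 ± 0.30, adjusted p = 0.99). The groups overlapped fully, and the sign of this value changed in 7 alternatives. Tnfsf8 was higher in each ipilimumab mouse (374, 400 and 747 CPM) than in any IgG1 mouse (353, 119 and 257), yet did not pass (1.14 ± 0.38, adjusted p = 0.73). The share of cells with a Tnfsf8 UMI overlapped, at 42.9%, 29.2% and 35.3% in IgG1 and 25.9%, 38.1% and 33.3% in ipilimumab mice, with the lower mean in the ipilimumab mice (32.5% against 35.8%). Cxcr6 (0.61), Cd40lg (0.49) and Rora (0.47) overlapped between groups. Icos, a gene of the rule, had 672 ± 47.2 and 804 ± 120 CPM, given as a description.

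The genes of lowest p without overlap, none called by edgeR, were on the higher side Lyz2, Zeb2, Aven, Epb41l2 and Ifrd1. DESeq2 called Lyz2 and Zeb2, and edgeR with the replicate number as a block called Lyz2. Epb41l2, a membrane skeleton protein, was at 19.1, 62.0 and 71.3 CPM in IgG1 and 169, 159 and 280 in ipilimumab mice (1.92 ± 0.42, adjusted p = 0.44). Ifrd1, a transcriptional coregulator induced by stress, was at 276, 329 and 242 against 543, 880 and 583 CPM (1.23 ± 0.27, adjusted p = 0.44), and Aven, an inhibitor of cell death, at 28.6, 19.1 and 21.4 against 71.7, 73.4 and 114 (1.97 ± 0.43, adjusted p = 0.44). These 3 were higher in all 3 ipilimumab mice, but none passed the adjusted test.

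On the lower side stood Ifi27l2a, Gpr183, Hspd1, Naa20 and Hsph1. Ifi27l2a, an interferon-induced gene, was at 848, 759 and 962 CPM in IgG1 and 471, 382 and 265 in ipilimumab mice (-1.21 ± 0.25, adjusted p = 0.44 by edgeR), and DESeq2 called it lower. The other 5 tested interferon-stimulated genes were called by neither tool (median of the 6, -0.58). Gpr183, the oxysterol receptor EBI2 that guides lymphocytes, was at 295, 334 and 328 against 113, 185 and 139 CPM (-1.12 ± 0.27, adjusted p = 0.49). The chaperones Hspd1 (-1.09) and Hsph1 (-1.82) and the acetyltransferase subunit Naa20 (-1.16) did not overlap either, each with an adjusted p of 0.72. Without the 7 macrophage-rich cells described next they were -0.95, -0.97 and -1.05 (adjusted p = 0.81, 0.84 and 0.81), so the value of Hsph1 moved by over 1.5 times. In Hsph1, IgG1 replicate 2 held 291 CPM where the other IgG1 mice had 57.2 and 71.3, and 136 CPM without its macrophage-rich cell.

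**Figure D4:**
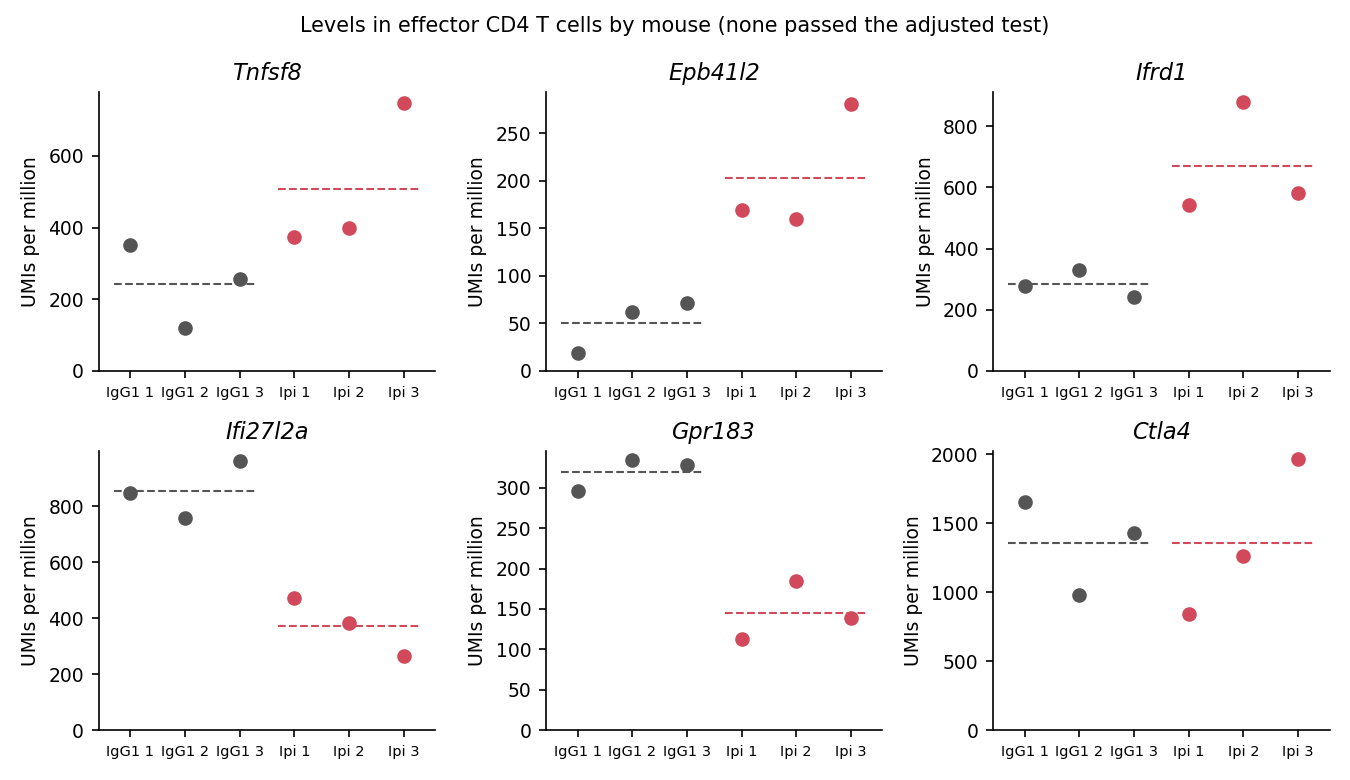
CPM of 6 genes in the effector CD4 T cells of each mouse, grey for IgG1 and red for ipilimumab (Ipi), with group means as broken lines. Tnfsf8, Epb41l2 and Ifrd1 lie higher and Ifi27l2a and Gpr183 lower in each ipilimumab mouse, none of them called by edgeR and Ifi27l2a called by DESeq2, and Ctla4 overlaps.

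Lyz2, the lysozyme gene of macrophages, had the lowest p of all (log2 fold change 5.65 ± 1.13, adjusted p = 0.44), and its values were 38.1, 47.7 and 21.4 CPM in IgG1 and 56.3, 2287 and 3245 in ipilimumab mice. The high values came from few cells: 7 of the 175 held at least 20 UMIs of 14 macrophage markers, 1 in IgG1 replicate 2 with 27 and 3 in each of ipilimumab replicates 2 and 3 with 455 to 1423, while the highest count in the other 168 cells was 8. Doublet scoring marked 5 of the 7. The IgG1 cell was not marked and had 47202 UMIs in all, with 2 of Lyz2 and 1 of Chil3. It held 22.5% of the effector UMIs of IgG1 replicate 2. Without the 7 cells Lyz2 was at 52.5 and 53.2 CPM in ipilimumab replicates 2 and 3 and was no longer tested, and again 0 genes were called (of 3277). Zeb2, which T cells and macrophages both express, went from 2.38 to 1.17 (adjusted p = 0.65), whereas Epb41l2 (2.12), Aven (1.91), Ifrd1 (1.18), Tnfsf8 (1.32), Ifi27l2a (-1.11) and Gpr183 (-0.95) kept their sizes, at adjusted p from 0.33 to 0.81.

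**Figure D5:**
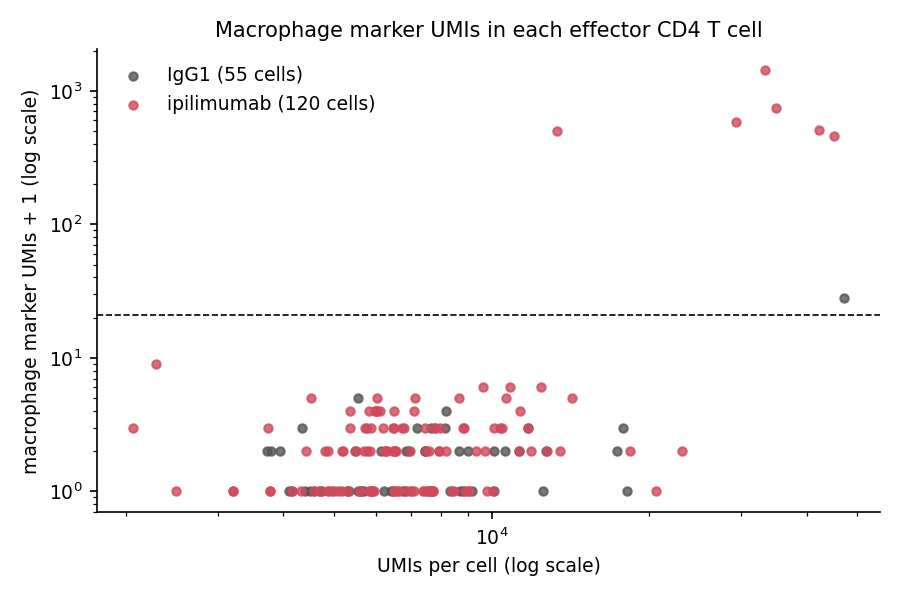
UMIs of 14 macrophage markers plus 1 (y axis, log scale) against all UMIs (x axis, log scale) in each effector CD4 T cell, grey for IgG1 and red for ipilimumab. The broken line marks 20 marker UMIs, above which 7 cells lie, 6 of them from ipilimumab mice.

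The fit without ipilimumab replicate 1, the ipilimumab mouse that had none of these cells, gave other counts. It called 86 genes, 85 of them higher, with Lyz2 at 6.20 and the alveolar macrophage genes Chil3 at 5.29 and Ear2 at 8.01. Of the 86, 4 belong to the 14 macrophage markers. With the 7 cells left out as well, 0 of 3223 genes were called, but only 17 of the 86 were still tested, the others having dropped below the filter on low counts.

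Markers of other cells were summed over the gate. Lyz2 had a UMI in 30.3% of effector cells and in 26.8% of B cells. Alveolar macrophage markers (7 of 7 detected, Chil3 highest) summed to 47.6, 153 and 28.5 CPM in IgG1 and 15.4, 2287 and 2371 in ipilimumab mice, and to 61.6, 97.9 and 182 CPM in IgG1 replicate 2 and ipilimumab replicates 2 and 3 without the 7 cells. The 7 monocyte and macrophage markers (Lyz2 highest, C1qa at 0) summed to 47.6, 66.8 and 21.4, and 61.5, 2320 and 3274 CPM. Markers of NK cells summed to at most 14.3 CPM in 4 mice and to 367 and 449 CPM in ipilimumab replicates 2 and 3 through Tyrobp, which macrophages also express. Without the 7 cells these were 14.0 and 16.8 CPM, and Klre1, Klra8 and Klra4 were at 0. B and plasma cell markers summed to 42.8 to 78.5 CPM. Trdc, the gamma delta T cell receptor constant gene, had a UMI in 2 cells, both in ipilimumab replicate 3, while 3 of the 7 gamma delta markers (Tcrg-C4, Trdv4 and Sox13) were at 0. Zbtb16, which marks innate-like T cells, had a UMI in 3.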

How the data were processed

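Right lung cells of 6 mice were measured in 6 libraries of 10x Genomics Single Cell 3' v3.1. The deposited values are counts of UMIs per gene and barcode, which the authors made by alignment to mm10 with Cell Ranger (7.0.0 in the submitters' processing notes, version 4 in the file headers, and another version in the study's methods), before their ambient RNA correction and clustering, which were not used here. All barcodes are included, so cells were taken by the limits in the report. The members, gene lists and tests were chosen with earlier results of these data known. UMIs were summed per mouse and gate, filtered with filterByExpr, scaled by TMM and tested with edgeR 4.0.16 (DESeq2 1.42.0 as an alternative) and Benjamini-Hochberg adjustment over all genes tested. SE is the log2 fold change over the square root of F, while CPM are scaled to total UMIs alone. Each mouse is 1 sample, and Wilson and ratio intervals cover counting error only. Doublets were scored against simulated pairs and removed in an alternative only. Genes named are the markers and Ctla4, the genes of lowest p without overlap between treatments (5 per direction), the 10 highest and lowest called gate differences with the same sign in 6 of 6 mice and at least 50 CPM, and members of the lists. The macrophage threshold of 20 UMIs was set after the values were seen. Gene positions are from GENCODE vM21 (GRCm38). On simulated counts the treatment test called 29 of 85 genes changed by a log2 of 1, 80 of 83 changed by 2, and 2 of 3520 unchanged. Some genes of the lists are not reported here.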

Additional observations from a re-analysis of the deposited data

How the results depend on the processing

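The effector share of all cells kept its direction in all alternatives (log2 fold change 0.29 to 1.29). It passed as a share of T cells (0.91), with TMM size factors (0.88), with the replicate block (0.97) and without the Icos criterion (1.06), and leaving out 1 mouse gave 0.73 to 1.29. These are edgeR tests that estimated the spread over the gates together. Same-numbered mice share only a number (correlations of their deviations 0.0065, 0.15 and -0.14), so the block is not a pairing. The share of conventional CD4 cells stayed 4.92 to 8.50 percentage points higher, and 6.1 with the block (exact p = 0.25, the smallest possible with this block). Without the block its exact test cannot go below 0.1. Calls between treatments were 3 with DESeq2 (Lyz2 and Zeb2 higher, Ifi27l2a lower), 415 with no filter on low counts (348 of them below the filter), 1 with the replicate block (Lyz2), 1 without the Lef1 criterion, 1 in cells thinned to 2000 UMIs, and 0 to 86 with 1 mouse left out. Ctla4 between treatments turned to -0.032 with the replicate block, -0.14 without IgG1 replicate 2, -0.35 without ipilimumab replicate 3 (range with 1 mouse left out -0.35 to 0.28), -0.062 with at least 2 Icos UMIs, -0.021 without the Lef1 criterion, -0.049 with at least 1 CD3 UMI and -0.22 in thinned cells, and the cause was not tested. Against naive-like cells the 645 calls became 1048 with no filter and 144 thinned, where 1045 genes were tested. Against Foxp3 cells the 144 became 433 with no filter, 2 thinned (284 genes tested), 9 in IgG1 mice alone and 69 to 242 with 1 mouse left out, and Rora turned to -1.06 when thinned. Against CD8 cells the 168 became 387, 52 thinned, 111 in IgG1 and 78 in ipilimumab mice alone. Leaving out cells of over 20000 UMIs or rich in macrophage markers, alternatives chosen after seeing the data, moved no count of calls by more than 1.5 times with all 6 mice in the fit, while without ipilimumab replicate 1 the 86 calls became 0 when macrophage-rich cells were left out too.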
